A study of Mus musculus with 75 samples.

Results

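CB1-/- mice and wild-type littermates, both fed a high-fat diet and both dosed with AM251, were compared in epididymal white fat. The comparison took the 5 knockout arrays and the 5 wild-type arrays that the sample titles place in these groups, 10 of the 75 arrays of the series. All 10 arrays came from male C57BL/6 mice put on the diet (59.4% of energy from fat) at 2 months of age and kept on it for 14 weeks. AM251 was given by mouth at 10 mg/kg on each of 2 days, and tissue was taken on day 3, the morning after the second dose. The knockout is constitutive, not limited to fat, and had been crossed for 10 generations onto C57BL/6J before the line was re-derived on C57BL/6N. High-fat fat of vehicle-dosed mice (methylcellulose, 3 knockout and 5 wild-type arrays) and fat of AM251-dosed mice on chow (13% of energy from fat, 3 knockout and 5 wild-type arrays) served for comparison, with the same strain, sex, age and diet length. The labels tie arrays to animals only through a number in each title, and p-values measure the spread between these arrays.

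CB1, encoded by Cnr1, is a receptor for the endocannabinoids anandamide and 2-arachidonoylglycerol that couples to inhibitory G proteins and lowers cyclic AMP. In white fat its activation is known for favouring lipid storage, and in the brain for raising food intake. AM251 is a CB1 inverse agonist: it binds the receptor and lowers its basal activity, so in mice without CB1 it has no CB1 to act on. Obese epididymal fat gathers macrophages around dying adipocytes, where they take up lipid and switch on lysosomal and lipid-handling genes.

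Knockout fat had lower levels of macrophage, lysosomal and cell cycle genes and higher levels of genes of fatty acid, sterol, glycogen and branched-chain amino acid metabolism. Values are log2 array intensities, and differences are knockout minus wild type on that scale with the standard error of the limma fit. A gene was called changed at a Benjamini-Hochberg adjusted p under 0.05 over 19147 genes. Of these, 2908 passed (15.2%), 1569 of them higher in the knockout (8.19%) and 1339 lower (6.99%), and the median difference over all genes was 0. Calls of more than 2-fold numbered 100 higher and 185 lower. Wherever 5 values follow each other, they run over knockout arrays 45, 46, 48, 49, 50 or over wild-type arrays 33, 34, 35, 36, 37, in that order.

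Array medians lay between 44.3 and 48 intensity units over the 36 fat arrays, and each fat array correlated at 0.976 to 0.99 on average with the others. In these groups knockout array 45 and wild-type arrays 37 and 35 lay between the genotypes. Each array was placed, gene by gene, between the wild-type mean (0) and the knockout mean (1), over the genes that separated the genotypes without overlap in the other 17 high-fat fat arrays. Knockout array 45 had a median place of 0.5, nearer the knockout mean for 540 of 1101 genes, while the other knockouts lay at 1.02 to 1.12. Those were placed on 493 to 510 genes each, picked with array 45 among the knockouts and set against a mean that includes it. Places of different arrays thus rest on different genes and means, and part of their contrast follows from this. Wild-type array 37 had a median place of 0.63, nearer the knockout mean for 633 of 982 genes. Wild-type array 35 lay at 0.4, nearer the knockout mean for 219 of 604 genes. The other wild-type arrays lay at -0.4, -0.16 and 0.12. Results are given with and without array 45, a repeat chosen because its macrophage genes were known to lie near the wild types. Array 37 was left out by itself only as 1 of the alternatives, with 3100 calls. Leaving out array 45 raised the calls to 3384 (17.7%), 1734 higher (9.06%) and 1650 lower (8.62%), with 2817 genes called in both fits, 91 lost and 567 gained. With arrays 45 and 37 both left out, an alternative chosen after seeing the data, 3578 genes passed (1775 higher, 1803 lower). The log2 of the summed intensity of 15 adipocyte markers was 17.19 to 17.25 in the knockouts and 17.09 to 17.24 in the wild types, a sum set mostly by the brightest of them. Wild-type arrays 36 and 37 carried epididymis transcripts, with the same summed level of 14 epididymis and testis markers at 13.85 and 10.37 against 9.04 to 9.68 in the other 8 arrays.

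**Figure D1:**
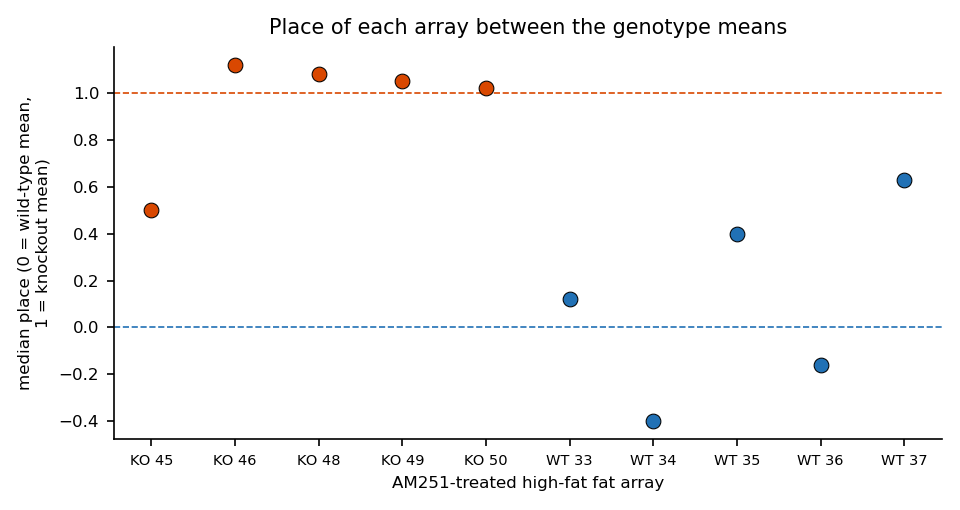
Place of each AM251-treated high-fat fat array between the genotype means; the y axis is the median over separating genes, with 0 the wild-type mean and 1 the knockout mean of the other high-fat arrays. Knockout array 45 (0.5) and wild-type arrays 37 (0.63) and 35 (0.4) lie between the genotypes, and the other knockouts lie at 1.02 to 1.12. Each array has its own set of separating genes.

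Cnr1 itself could not serve as a check of the labels, since the position of its probes relative to the deletion is not known here. The brighter of its 2 probe sets measured 4.95, 6.42, 6.6, 6.27 and 6.76 in the knockouts and 5.27, 5.54, 5.22, 5.03 and 5.37 in the wild types. Array 45 was thus the lowest of all 10 arrays and the other 4 knockouts were above every wild type. The difference was 0.91 ± 0.32 (adjusted p = 0.0498), and 1.22 ± 0.3 without array 45 (adjusted p = 0.00392). The dimmer probe set gave -0.12, and the mean of both ended the call (0.39, adjusted p = 0.125), 1 of 14 alternatives among 19 that did so. Of the 40 measured genes nearest to Cnr1, 20 on each side, 3 were higher and 3 lower (15%, close to the 15.2% of all genes). Pm20d2, which codes for a dipeptide-cleaving enzyme and lies 4 measured genes away, was highest among them at 1.12 ± 0.2 (adjusted p = 3e-04), with 1.05 ± 0.23 under vehicle. The next-door gene Rngtt, the mRNA capping enzyme, rose by 0.37 ± 0.089, and Spaca1, a sperm acrosome protein gene on the other side, was lower at -0.73 ± 0.25. Farther out, Mob3b was higher at 0.3 ± 0.085, and Casp8ap2 (-0.36 ± 0.13) and Platr9 (-0.38 ± 0.1) were lower.

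Genes of lipid-laden macrophages were lower in the knockout. Of 21 measured lipid-associated macrophage genes, 16 were lower in the knockout (76.2%) and the other 5 were not called. Their median difference was -1.24. Atp6v0d2, a subunit of the lysosomal proton pump, measured 7.37, 4.23, 4.32, 3.89 and 4.47 in the knockouts and 9.3, 10.49, 7.71, 9.72 and 6.99 in the wild types. Array 45 stood within the wild-type range, and the other 4 knockouts lay at or below 4.47. The difference was -3.98 ± 0.55, a 15.8-fold lower level (adjusted p = 1.64e-05), and -4.61 ± 0.49 without array 45. Mmp12, the macrophage elastase, measured 10.36, 7.12, 7.33, 6.84 and 7.55 against 11.31, 12.5, 10.29, 11.69 and 9.93, a difference of -3.3 ± 0.52 (adjusted p = 6.89e-05). Trem2, the lipid-sensing receptor of these cells, measured 9.0, 6.9, 6.75, 6.73 and 6.93 against 10.6, 11.58, 9.13, 10.74 and 8.5, a difference of -2.85 ± 0.47 (adjusted p = 0.000119). Itgax, which encodes CD11c, was lower at -2.23 ± 0.4 (4.68-fold). In each of these genes array 45 was the only knockout to reach into the wild-type range. Over the 16 called genes array 45 was the highest knockout in every one. Only 1 of the 21 genes had all knockouts below all wild types (2.67% of all genes did), and 16 of 21 did with array 45 left out (7.71% of all genes). Array 45 was set apart because its macrophage genes lay near the wild types, so the second count follows from that choice and is a description.

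General macrophage markers moved the same way. Of 28 measured, 18 were lower (64.3%), 1 was higher (Lyve1) and 9 did not pass, with a median of -0.58. Mpeg1, the pore-forming perforin-2 of macrophages, measured 10.5, 8.8, 8.88, 8.62 and 8.95 in the knockouts and 11.71, 12.11, 11.14, 12.12 and 10.27 in the wild types, 5-fold lower (adjusted p = 2.61e-05). Array 45 was again the sole knockout inside the wild-type range, just above wild-type array 37. Tyrobp, the signalling adaptor of Trem2, fell by 1.54 (SE 0.27, adjusted p = 0.000213), Clec7a, the beta-glucan receptor dectin-1, by 1.48 and Ptprc, the pan-leukocyte antigen CD45, by 1.23. The count was 19 lower without array 45, and 10 genes of the list passed in either direction without wild-type array 34. With only the 10 arrays compared in the fit, 11 genes of the list passed. The log2 summed intensity of the 28 markers was 15.36 in array 45, 14.89 to 15.04 in the other knockouts and 15.25 to 16.16 in the wild types. In such bulk tissue, fewer cells of a type and less RNA per cell cannot be told apart.

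**Figure D2:**
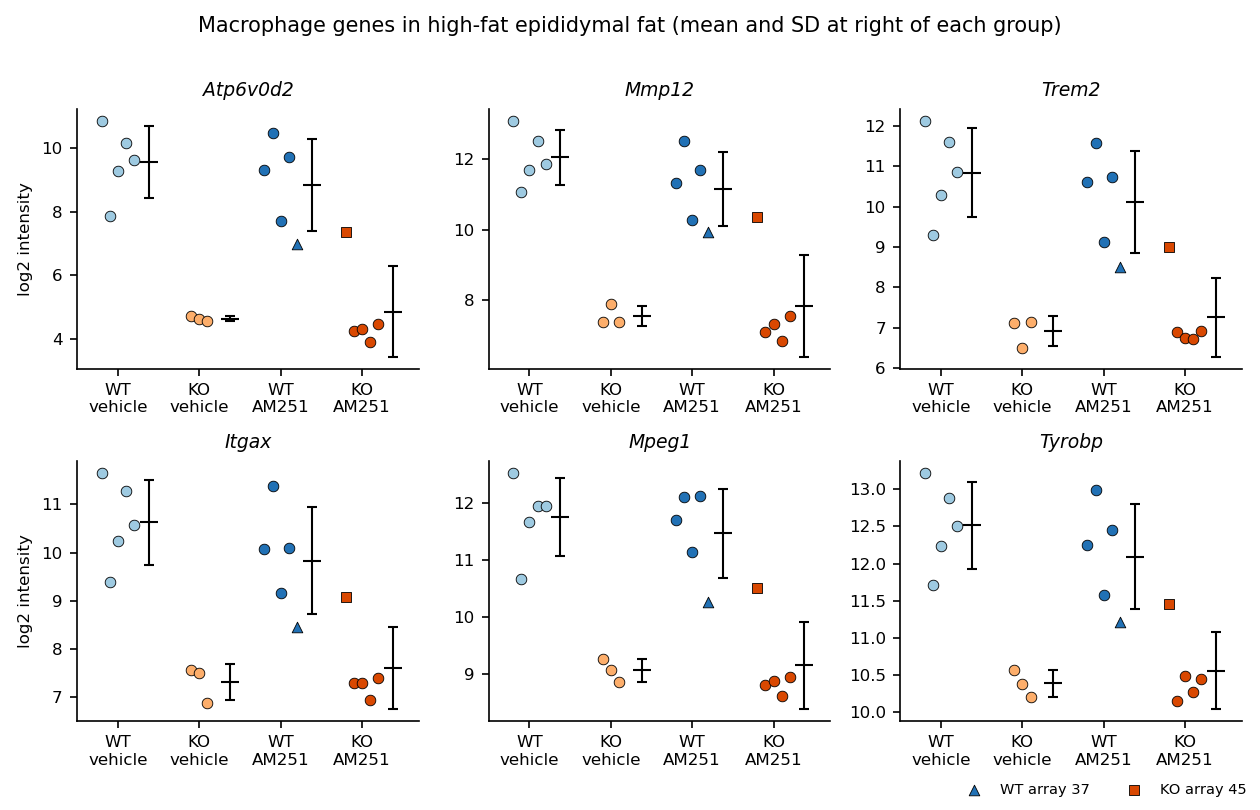
Log2 intensity of 6 macrophage genes in each array of the 4 high-fat fat groups; points are arrays, the bar and whiskers at the right of each group are its mean and SD, the square is knockout array 45 and the triangle wild-type array 37. In both treatments the knockouts lie low, and array 45 (Trem2 9.0) lies near the lower wild-type arrays.

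Further falls joined these among single genes. By the rule of the largest falls with groups that did not overlap, the list was led by Dusp9, a phosphatase of MAP kinases, at 7.07, 5.77, 5.44, 6.01 and 5.63 in the knockouts and 9.38, 8.48, 8.3, 8.49 and 7.63 in the wild types. That is 5.55-fold lower (difference -2.47 ± 0.27, adjusted p = 1.81e-06). Several of the next belong to leukocytes. Itgad, the integrin CD11d of fat macrophages, was lower at -2.44 ± 0.43, Cd84, a leukocyte adhesion receptor, at -2.2 ± 0.36, Pik3r5, a regulator of the gamma isoform of PI3 kinase, at -1.75 ± 0.3 and Slc11a1, the phagosome metal transporter, at -1.65 ± 0.26. Ccn5, a secreted matricellular protein, fell by 2.12 (SE 0.32), Sptlc3, a subunit of serine palmitoyltransferase, by 1.76 (SE 0.30) and the immediate early gene Fos by 1.81 (SE 0.33). Some falls larger than Dusp9's lay outside the rule because array 45 overlapped the wild types, and these genes were picked after their values were seen. They were Vsig8 at -3.41 ± 0.57, Rgs1, a brake on G protein signalling in leukocytes, at -3.34 ± 0.47, Ubd, a ubiquitin-like modifier, at -3.16 ± 0.47, Tph2, the neuronal tryptophan hydroxylase, at -2.84 ± 0.61 and Slc5a7, the choline transporter, at -2.75 ± 0.58. Tph2 measured 6.34, 4.32, 4.11, 4.2 and 4.42 in the knockouts and 9.02, 9.23, 6.37, 8.4 and 4.55 in the wild types. In that gene array 45 lay at the level of wild-type array 35, and wild-type array 37 lay just above the other 4 knockouts.

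Many lysosomal, antigen-presenting and proliferation genes and some cytokine genes were lower as well. Of 22 lysosomal genes, 11 fell (50%) and the rest did not pass. Ctsl, the protease cathepsin L, measured 12.38, 11.44, 11.57, 11.51 and 11.74 against 13.02, 13.47, 12.64, 13.09 and 12.38, where the highest knockout and the lowest wild type met at 12.38, a difference of -1.19 ± 0.19 (adjusted p = 7.4e-05). Ctsz, the protease cathepsin Z, fell by 1.15 (SE 0.20), Psap, the precursor of sphingolipid activators, by 0.92 (SE 0.20) and Npc2, a cholesterol carrier, by 0.75 (SE 0.14). Of 11 MHC class II genes 6 fell (54.5%), among them the class II transactivator Ciita at -0.51 ± 0.11, H2-Eb1 at -0.88 ± 0.16, H2-Aa at -0.92 ± 0.2 and the peptide loader H2-DMb1 at -1.0 ± 0.2. Of 23 cytokine and chemokine genes 6 fell (26.1%) and 17 did not pass. Among those that fell were Il1rn, the interleukin-1 receptor antagonist, at -1.77 ± 0.38, Ccl9 at -1.05 ± 0.25, Ccl6 at -0.71 ± 0.17 and Cxcl12 at -0.58 ± 0.15. Cell cycle genes fell in 12 of 23 (52.2%). Cdk1, the kinase that starts mitosis, measured 7.31, 6.61, 6.26, 6.47 and 6.7 against 7.8, 8.35, 7.73, 7.94 and 6.94, a difference of -1.08 ± 0.2 (adjusted p = 0.000446). Rrm2, a subunit of ribonucleotide reductase, and Cdc20, an activator of the anaphase complex, each fell by 0.85 and Mcm4, a subunit of the replicative helicase, by 0.36. The macrophage markers moved with all of these lists, and their part in the falls was not tested. Without wild-type array 34, 7 cell cycle genes passed.

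Some matrix genes were lower. Of 31, 8 were lower (25.8%), 1 was higher (3.23%) and the rest did not pass. Postn, the matricellular protein periostin, measured 10.87, 9.31, 9.21, 9.47 and 9.73 in the knockouts and 11.12, 11.65, 11.42, 11.39 and 11.11 in the wild types, 3.07-fold lower (adjusted p = 1.08e-05). Array 45 came nearest to the wild types without overlapping them. Mmp3, the protease stromelysin-1, was lower at -1.57 ± 0.28 and Col12a1, a fibril-associated collagen, at -0.95 ± 0.17, whereas Col15a1, a basement membrane collagen, was higher at 0.79 ± 0.13, with all knockouts above all wild types.

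Genes that make fatty acids and triglycerides were higher in the knockout. Of 24 measured, 15 rose (62.5%), the other 9 did not pass, and the median was 0.86 (1.01 without array 45). In 14 of the 24 all knockouts lay above all wild types (6.11% of all genes did). Fasn, fatty acid synthase, measured 9.11, 11.41, 10.81, 9.52 and 10.49 in the knockouts and 8.9, 8.97, 7.75, 8.32 and 7.1 in the wild types. Array 45 lay only just above the highest wild type, and the knockouts spread widely. The difference was 2.06 ± 0.47, 4.17-fold (adjusted p = 0.00246). Acss2, which makes acetyl-CoA from acetate, measured 9.54, 10.82, 10.82, 10.14 and 10.73 against 9.05, 8.7, 8.89, 8.74 and 8.27, 3.2-fold higher (adjusted p = 0.00202). Pnpla3, a lipid droplet protein that follows carbohydrate feeding, measured 8.83, 10.46, 9.91, 9.78 and 9.87 against 7.77, 8.15, 7.65, 7.25 and 7.66, 4.21-fold higher (adjusted p = 2.66e-05). All 5 knockouts lay above all 5 wild types in each of these genes. Agpat2, an acyltransferase of triglyceride assembly, rose by 1.02 ± 0.18 and Mogat1, a monoacylglycerol acyltransferase, by 1.37 ± 0.22. Thrsp, the lipogenic nuclear protein Spot14, rose by 1.01 ± 0.16 and Dgat2, the enzyme of the last step to triglyceride, by 0.69 ± 0.12, both from levels above 12 in every array.

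Cholesterol synthesis genes also rose, by less. Of 19 measured 7 were higher (36.8%), the other 12 did not pass, and the median was 0.48. Mvk, mevalonate kinase, measured 8.64, 8.93, 8.8, 8.6 and 8.65 in the knockouts and 8.22, 8.31, 8.2, 8.07 and 8.24 in the wild types, a difference of 0.51 ± 0.11 (adjusted p = 0.00146). Sc5d, a desaturase late in the sterol pathway, measured 9.88, 10.13, 9.83, 9.8 and 9.98 against 9.4, 9.39, 9.35, 9.56 and 9.07, a difference of 0.57 ± 0.14 (adjusted p = 0.00415). Both genes separated the groups without overlap. Lss, the enzyme that closes the sterol rings, rose by 0.56 ± 0.18 and Stard4, a sterol carrier, by 0.51 ± 0.15, with overlap of knockout array 49 in Lss and of array 45 in Stard4. The count rested on single arrays: 2 genes passed without knockout array 46 or without wild-type array 37, 3 without knockout array 48, and 4 without knockout array 50 or without wild-type array 36, while the median stayed at 0.38 or above in every alternative.

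The regions upstream of these genes were read because their members moved together. Matches were searched in the 250 bases before the first start site that the RefSeq promoter table (GRCm38.p6) lists for each gene, on both strands. The CCAAT motif (CCAAT, read as ATTGG on the other strand) was found for 15 of 16 cholesterol synthesis genes with an entry (93.8%) and 7 of 16 fatty acid and triglyceride synthesis genes (43.8%), against 34.5% of 27025 genes. It did not go with 1 direction: 15 of 19 cell cycle genes (78.9%) held it, of which 8 were lower, as did 9 of 20 macrophage markers (45%) and 6 of 15 lipid-associated macrophage genes (40%). Of the 15 cholesterol genes with CCAAT 5 were called higher. GGGCGG, searched on both strands, was likewise found for 15 of the 16 cholesterol genes (93.8%) and 14 of the 19 cell cycle genes (73.7%), against 32.9% of all genes. In the lysosomal list 12 of 18 genes held it (66.7%). Also searched was TCACNCCAC (N for any base), found for 1 of the 16 cholesterol genes (6.25%, against 1.04%). TCACGTGA was found for 4 of 18 lysosomal genes (22.2%, against 0.803%) and AGGAAGT for 7 of 20 macrophage markers (35%, against 7.8%). Among the 5 regions printed here, picked after the matches were seen, 4 belong to genes that rose, shown with CCAAT or ATTGG in capitals, and 1 to the lysosomal protease gene Ctsd, shown with the E-box CACGTG in capitals.
Mvk, chr5:114444019-114444268, plus strand: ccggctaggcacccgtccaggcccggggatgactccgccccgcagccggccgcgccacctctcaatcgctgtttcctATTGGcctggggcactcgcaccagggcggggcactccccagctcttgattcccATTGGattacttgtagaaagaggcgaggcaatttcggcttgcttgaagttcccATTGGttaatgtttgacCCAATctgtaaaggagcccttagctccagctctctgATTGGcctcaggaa
Sc5d, chr9:42264301-42264550, minus strand: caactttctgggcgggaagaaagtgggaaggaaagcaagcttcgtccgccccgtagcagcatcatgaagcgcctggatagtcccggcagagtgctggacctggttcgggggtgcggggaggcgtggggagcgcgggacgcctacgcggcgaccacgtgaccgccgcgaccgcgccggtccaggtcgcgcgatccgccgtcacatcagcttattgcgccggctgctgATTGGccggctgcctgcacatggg
Lss, chr10:76531355-76531604, plus strand: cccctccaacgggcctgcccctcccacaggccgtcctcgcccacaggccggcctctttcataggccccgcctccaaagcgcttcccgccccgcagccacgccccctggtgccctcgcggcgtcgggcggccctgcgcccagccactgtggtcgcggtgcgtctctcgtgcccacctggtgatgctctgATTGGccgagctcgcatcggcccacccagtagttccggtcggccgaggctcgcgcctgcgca
Fasn, chr11:120824548-120824797, minus strand: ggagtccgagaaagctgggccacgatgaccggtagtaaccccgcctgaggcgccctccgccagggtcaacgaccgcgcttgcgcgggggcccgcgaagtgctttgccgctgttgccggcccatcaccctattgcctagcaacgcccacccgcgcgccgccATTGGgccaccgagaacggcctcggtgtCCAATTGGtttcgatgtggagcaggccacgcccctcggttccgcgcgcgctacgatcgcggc
Ctsd, chr7:142387828-142388077, minus strand: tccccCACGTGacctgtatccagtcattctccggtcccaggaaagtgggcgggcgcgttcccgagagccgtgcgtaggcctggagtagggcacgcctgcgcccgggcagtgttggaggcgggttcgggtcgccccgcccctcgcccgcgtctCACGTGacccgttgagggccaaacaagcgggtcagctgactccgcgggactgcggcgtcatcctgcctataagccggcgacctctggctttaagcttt
Mvk holds 5 matches, Fasn 3, of which the pair in the CCAATTGG run overlap, and Sc5d and Lss 1 each. CACGTG, its own reverse complement, was found for 6 of 18 lysosomal genes with an entry (33.3%), against 6.05% of all genes, and Ctsd holds 2 of them. Of those 6 lysosomal genes 2 were called lower, Ctsd by 0.38 (adjusted p = 0.0027) and Ctsl. A match describes letters only.

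**Figure D3:**
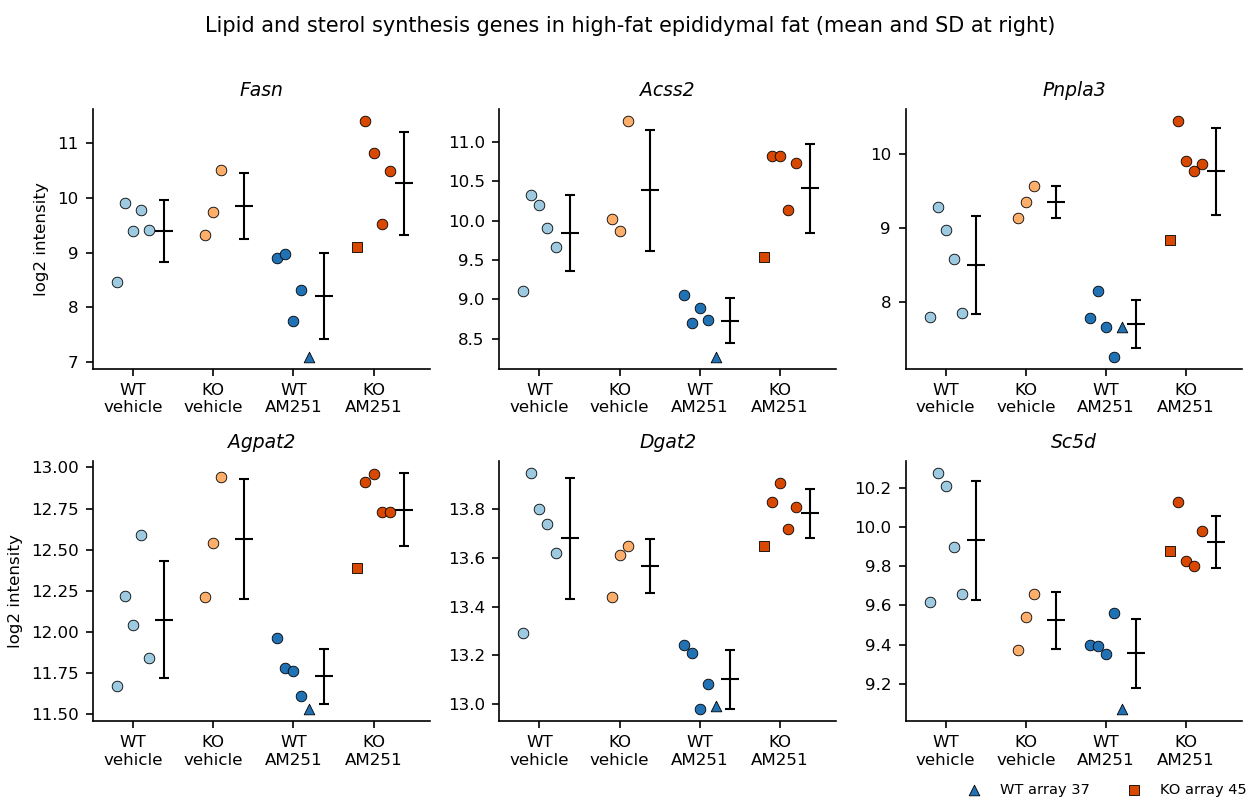
Log2 intensity of 6 lipid and sterol synthesis genes in each array of the 4 high-fat fat groups; points are arrays, with mean and SD at the right of each group, the square is knockout array 45 and the triangle wild-type array 37. Under AM251 all knockouts lie above all wild types in each panel. Under vehicle the Fasn difference was 0.46, against 2.06 under AM251, and the Sc5d mean was lower in the knockouts. Of the 6 genes, only Dgat2 and Sc5d passed the test of the difference between treatments.

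Carbohydrate storage, pyruvate and amino acid genes rose beside the lipid genes. Of 15 glycogen genes 7 rose (46.7%) and 1, Pgm2, fell. Ppp1r3c, the glycogen-targeting subunit of protein phosphatase 1, measured 7.82, 8.34, 8.11, 8.07 and 7.9 in the knockouts and 6.96, 6.46, 7.08, 6.77 and 7.03 in the wild types, 2.28-fold higher (adjusted p = 1.08e-05). The branching enzyme Gbe1 rose by 1.25 ± 0.19, phosphoglucomutase Pgm1 by 0.83 ± 0.12 and Ppp1r3d by 0.96 ± 0.17, all with no overlap of groups. Of 20 genes of glyceroneogenesis, gluconeogenesis and pyruvate routing 9 rose (45%) and 2, Pdk4 and Got1, fell, with the alanine aminotransferases Gpt2 at 1.21 ± 0.18 and Gpt at 0.88 ± 0.15, the glycerol phosphate dehydrogenase Gpd2 at 1.29 ± 0.24 and the malate dehydrogenase Mdh2 at 0.38 ± 0.065. Of 21 genes that break down branched-chain amino acids 12 rose (57.1%) and the other 9 did not pass. Bcat2, the mitochondrial transaminase of the first step, measured 10.3, 11.14, 11.11, 11.01 and 11 against 9.79, 9.44, 10.03, 9.65 and 9.92, 2.21-fold higher (adjusted p = 2.93e-05). Ivd, isovaleryl-CoA dehydrogenase, rose by 1.02 ± 0.17, Mccc2, a subunit of methylcrotonyl-CoA carboxylase, by 0.76 ± 0.12 and Pccb, a subunit of propionyl-CoA carboxylase, by 0.56 ± 0.11. Subunits of oxidative phosphorylation rose in 11 of 32 (34.4%) and fell in 1 (Ndufa8), by small amounts, with rises such as that of Cyc1, cytochrome c1, by 0.6 ± 0.095, Sdhc of complex II by 0.62 ± 0.12, and Uqcrfs1 and Uqcrc1 of complex III by 0.45 ± 0.082 and 0.38 ± 0.076. Array 45 was the lowest knockout for 12 of the 21 branched-chain genes and 17 of the 32 subunits.

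Among the 12 largest rises were genes of other kinds. Cyp2f2, a cytochrome P450, measured 4.78, 8.6, 9.04, 8.08 and 8.53 in the knockouts and 3.97, 4.07, 3.81, 4.45 and 4.27 in the wild types. Array 45 lay just above the highest wild type and far below the other knockouts. The difference was 3.69 ± 0.61, 12.9-fold (adjusted p = 0.000108), and 4.45 ± 0.51 without array 45. H2-Q10, a secreted MHC class I molecule, rose by 1.94 ± 0.42, Slc2a13, a myo-inositol transporter, by 1.85 ± 0.28, Prodh, proline dehydrogenase, by 1.76 ± 0.21 and Gsta3, a glutathione transferase, by 1.63 ± 0.25. Rhbdl3, a rhomboid-like protein, rose by 1.7 ± 0.22, Slc25a35, a mitochondrial carrier, by 1.66 ± 0.2 and Gm6936 by 1.61 ± 0.21. Angptl8, a feeding-induced secreted regulator of lipoprotein lipase, measured 9.05, 8.24, 8.43, 7.79 and 8.36 against 6.58, 6.93, 6.49, 6.21 and 6.04, 3.8-fold higher (adjusted p = 0.000925). In Angptl8 array 45 was the highest knockout, whereas it was the lowest in the other 11 of these rises.

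PPAR targets and fatty acid oxidation genes went both ways. Of 27 measured 5 rose (18.5%) and 7 fell (25.9%). Vnn1, the pantetheinase and PPAR alpha target, measured 8.0, 6.42, 5.96, 7.03 and 6.63 in the knockouts and 9.58, 8.4, 9.01, 9.58 and 8.86 in the wild types, 4.85-fold lower (adjusted p = 8.18e-05). Pdk4, the kinase that shuts off pyruvate dehydrogenase, measured 10.73, 9.84, 9.58, 9.56 and 9.01 against 11.66, 11.21, 11.25, 11.48 and 11.31, 3.11-fold lower (adjusted p = 0.000492). Neither gene overlapped between the groups. The fasting-linked hormone gene Fgf21 was lower at -0.73 ± 0.17, while Cpt2, the inner-membrane carnitine palmitoyltransferase, rose by 0.49 ± 0.11. With knockout array 48 or knockout array 50 left out, 7 genes of the list passed. Of 18 lipolysis and lipid droplet genes 4 rose (22.2%) and 3 fell (16.7%): Hilpda, an inhibitor of the triglyceride lipase ATGL, fell by 1.46 (SE 0.24, adjusted p = 8.73e-05), the droplet coats Plin2 and Plin5 by 0.90 and 0.73, and Plin1, the coat of mature adipocytes, rose by 0.38 ± 0.12. Between 2 and 4 genes of that list passed without knockout array 46, 48 or 49 or without wild-type array 33, 34 or 36.

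Adipocyte, adipokine and retinoid genes gave mixed counts. Of 15 adipocyte markers 6 rose (40%) and 1, Cd36, fell, with a median of 0, and 4 in all passed without knockout array 46 or 48 or without wild-type array 34 or 36. Cebpa, a master regulator of adipocytes, rose by 0.41 ± 0.1 and the thyrotropin receptor gene Tshr by 0.58 ± 0.16, whereas the fatty acid transporter Cd36, which is also made by macrophages and endothelium, was lower at -0.43 ± 0.089. Of 19 adipokine and expansion genes 4 rose and 4 fell, with Agt, angiotensinogen, at 1.13 ± 0.26 and Cav1, the caveolar coat, at 0.32 ± 0.074. Of 27 retinoid genes 5 rose (18.5%) and 2, Rbp7 and Dhrs9, fell (7.41%). Rbp7, a cellular retinol-binding protein of fat endothelium and adipocytes, measured 10.14, 9.11, 9.09, 9.35 and 9.12 in the knockouts and 10.8, 9.79, 11.54, 10.97 and 11.05 in the wild types, 2.76-fold lower (adjusted p = 0.000139). Array 45 overlapped wild-type array 34 alone. The retinol dehydrogenase Rdh10 rose by 0.56 ± 0.097, the serum retinol carrier Rbp4 by 0.59 ± 0.13 and the nuclear receptor Rxra by 0.41 ± 0.091.

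The machinery around the receptor changed in part. Of 26 signalling partners of CB1 in the cyclic AMP pathway 7 rose (26.9%) and 3 fell (11.5%). Prkaca, the catalytic subunit of protein kinase A, measured 9.83, 10.53, 10.31, 10.25 and 10.2 against 9.47, 9.49, 9.44, 9.23 and 9.55, 1.73-fold higher with no overlap (adjusted p = 1.98e-05). The phosphodiesterase Pde4a rose by 0.46 ± 0.12, and the adenylyl cyclases Adcy7, which leukocytes express, and Adcy4 were lower at -1.32 ± 0.24 and -0.49 ± 0.12. Without knockout array 46 or wild-type array 34, 6 genes passed, and 4 passed in a limma fit of only the 10 arrays compared. In that fit Pde4a lost its call (0.46, adjusted p = 0.065). Of 19 endocannabinoid receptors and enzymes 3 rose (15.8%) and 5 fell (26.3%). Ptpn22, a phosphatase that is also the site of an anandamide-forming activity, was lower at -1.04 ± 0.18, the 2-arachidonoylglycerol hydrolase Abhd12 at -0.72 ± 0.17 and the fatty acid carrier Fabp5 at -0.98 ± 0.23. Array 45 was the highest knockout in all 5 genes that fell, as in the lipid-associated macrophage genes that fell. Fabp5 also belongs to that macrophage list. The part of macrophages in these falls was not tested. Gde1, a phosphodiesterase of an anandamide-forming route, rose by 0.58 ± 0.14. Without wild-type array 34, or with only the 10 arrays compared in the fit, 5 of these genes passed.

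Markers of other cells were checked for the same arrays. Of 19 endothelial markers 4 fell (21.1%) and 15 did not pass, with Cldn5, the endothelial tight junction protein, at 10.89, 9.77, 10.08, 10.61 and 10.62 in the knockouts and 11.63, 10.9, 12.08, 11.48 and 11.46 in the wild types, a difference of -1.12 ± 0.22 (adjusted p = 0.000709). Egfl7, a secreted endothelial factor, was lower at -0.61 ± 0.15, VE-cadherin (Cdh5) at -0.49 ± 0.15 and Gpihbp1, the capillary anchor of lipoprotein lipase, at -0.38 ± 0.12. Only 2 endothelial genes passed without knockout array 46, 48, 49 or 50 or without wild-type array 35. Of 13 mesothelial markers 2 rose (15.4%), Wt1 at 0.6 ± 0.15 and Rspo1 at 0.51 ± 0.15, while Bnc1 (0.56 ± 0.2) and Krt19 (0.45 ± 0.19) did not pass. Of that list 1 gene passed without knockout array 50 or without wild-type array 34 or 36. Of 14 epididymis and testis markers 1 was called lower, Spint4, which lay at 3.04 to 3.42 in the knockouts and at 3.3, 3.31, 3.44, 11.23 and 6.8 in the wild types. That call came from wild-type arrays 36 and 37, without which the difference was -0.15 (adjusted p = 0.598).

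The genotype comparison under vehicle sets these differences beside those without the drug. Under vehicle 3048 genes passed (15.9%), 1382 higher (7.22%) and 1666 lower (8.7%), and 1895 without vehicle knockout array 44. The 1443 genes called in both comparisons made up 49.6% of the AM251 calls and 47.3% of the vehicle calls, and 1432 of them had the same direction. Across all 19147 genes, which are not independent of each other, the differences correlated with r = 0.71, and the comparisons share no array. A test of the difference between the genotype effects, which uses all 18 arrays, passed in 78 genes (0.407%), 36 more positive under AM251 (0.188%) and 42 more negative (0.219%). That count was unsteady, at 1 without vehicle knockout array 43 and at 279 without wild-type array 34.

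Macrophage genes were low in the knockout under either treatment. Under vehicle 16 of 21 lipid-associated genes and 23 of 28 macrophage markers fell, with medians of -1.52 and -1.04. Atp6v0d2 differed by -4.93 ± 0.64 and Trem2 by -3.92 ± 0.54 there. In the limma test of the difference, 0 of the 21 and 0 of the 28 genes passed, with 2 (9.52%) and 8 (28.6%) at an unadjusted p under 0.05, against 10.8% of all genes, and all 8 of those macrophage markers were less negative under AM251. Branched-chain genes likewise rose in 18 of 21 under vehicle (median 0.62) and glycogen genes in 5 of 15, with Ppp1r3c at 1.03 ± 0.18 and Bcat2 at 0.95 ± 0.19. The differences of Cyp2f2 were 3.69 ± 0.61 under AM251 and 3.63 ± 0.7 under vehicle, and 0.06 ± 0.93 between them (adjusted p = 0.989).

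Lipid and sterol genes gave other counts under vehicle. Under vehicle 7 of 24 fatty acid and triglyceride synthesis genes rose and 1, Mogat2, fell (median 0.49), and 7 of 19 cholesterol genes fell (median -0.34), against 7 that rose under AM251. Of the 19 cholesterol genes 1 passed the test of the difference, with 15 at an unadjusted p under 0.05 (78.9%, against 10.8% of all genes), each of them more positive under AM251. That gene was Sc5d, at -0.41 ± 0.16 under vehicle and 0.57 ± 0.14 under AM251, a difference of 0.98 ± 0.21 (adjusted p = 0.0328). Dgat2 measured 13.65 to 13.91 in the AM251 knockouts and 12.98 to 13.24 in the AM251 wild types, and its genotype difference was -0.11 ± 0.14 under vehicle, 0.8 ± 0.18 apart from that under AM251 (adjusted p = 0.0427). The call for the difference was lost in 8 of 24 alternatives for Sc5d (adjusted p up to 0.114) and in 13 of 24 for Dgat2 (up to 0.139), in the limma fit. Of the 24 fatty acid and triglyceride genes 6 lay at an unadjusted p under 0.05 (25%), 5 more positive and 1 more negative. Fasn differed by 0.46 ± 0.54 under vehicle (adjusted p = 0.651), and 1.6 ± 0.71 between treatments did not pass (adjusted p = 0.409). Its group means were 9.39 in vehicle wild types, 8.21 in AM251 wild types, 9.86 in vehicle knockouts and 10.27 in AM251 knockouts. Endothelial markers also gave other counts: under vehicle 3 of 19 rose and 0 fell (median 0.16, against -0.14 under AM251). Of the 19, 1 passed limma's test of the difference. At an unadjusted p under 0.05 lay 9 (47.4%, against 10.8% of all genes), each more negative under AM251.

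The 5 genes with the largest difference in each direction varied in which groups were high. Rbp7 had means of 9.07 in vehicle wild types, 10.14 in vehicle knockouts, 10.83 in AM251 wild types and 9.36 in AM251 knockouts. The knockout was thus above the wild type under vehicle (1.07 ± 0.28) and below it under AM251, a difference of -2.54 ± 0.38 (adjusted p = 0.0022), which passed in each of 24 alternatives. Vehicle knockout array 44 lay at 9.34, within the vehicle wild-type range, and arrays 42 and 43 above it. Pck1, the glyceroneogenic enzyme phosphoenolpyruvate carboxykinase, had means of 10.77 in vehicle wild types, 12.8 in vehicle knockouts, 12.47 in AM251 wild types and 12.18 in AM251 knockouts. It rose in the knockout under vehicle (2.03 ± 0.29), did not pass under AM251 (-0.29 ± 0.25, adjusted p = 0.519), and differed by -2.32 ± 0.38 between them (adjusted p = 0.00725). Only the vehicle wild types were low in Pck1, all below the other 3 groups. Hcar1, the adipocyte lactate receptor, had means of 8.38 in vehicle wild types, 10.21 in vehicle knockouts, 9.39 in AM251 wild types and 9.28 in AM251 knockouts and a difference of -1.94 ± 0.37 (adjusted p = 0.0158). Vnn1 had means of 7.16 in vehicle wild types, 7.32 in vehicle knockouts, 9.08 in AM251 wild types and 6.81 in AM251 knockouts, high in AM251 wild types alone, and a difference of -2.44 ± 0.56 (adjusted p = 0.0423). Vwa3a differed by -1.76 ± 0.35 and the endothelial gene Cldn5, named by its list, by -1.47 ± 0.34 (adjusted p = 0.0427). In the other direction, Angptl8 had means of 8.01 in vehicle wild types, 7.35 in vehicle knockouts, 6.45 in AM251 wild types and 8.38 in AM251 knockouts, lowest in AM251 wild types, and a difference of 2.58 ± 0.6 (adjusted p = 0.0429). Mogat2, a monoacylglycerol acyltransferase, had means of 9.64 in vehicle wild types, 8.37 in vehicle knockouts, 7.78 in AM251 wild types and 8.85 in AM251 knockouts and a difference of 2.34 ± 0.47 (adjusted p = 0.025), its genotype difference turning from -1.26 ± 0.35 under vehicle to 1.08 ± 0.31 under AM251. The histone gene H3c15 differed by 2.22 ± 0.5, Rhbdl3 by 1.77 ± 0.34 and Trabd2b, a Wnt-cleaving protease, by 1.55 ± 0.34. Apart from Rbp7, each of these calls was lost without vehicle knockout array 42 or 43, the highest adjusted p being 0.158 for Angptl8.

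**Figure D4:**
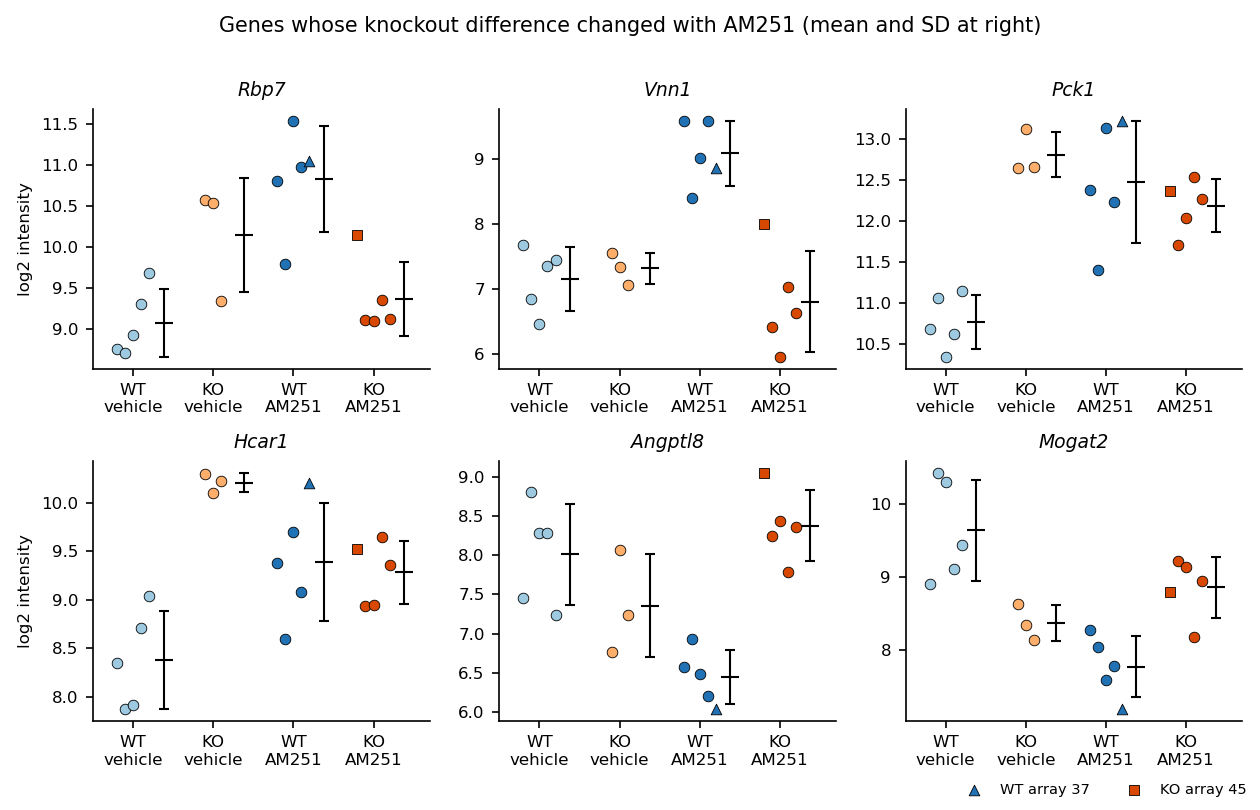
Log2 intensity of 6 genes whose knockout difference changed with treatment, by array in the 4 high-fat fat groups; points are arrays, with mean and SD at the right of each group, the square is knockout array 45 and the triangle wild-type array 37. By group means, Rbp7 is high in vehicle knockouts and AM251 wild types, Vnn1 in AM251 wild types, Pck1 and Hcar1 are low in vehicle wild types, and Angptl8 and Mogat2 are lowest in AM251 wild types.

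On chow, the genotype comparison under AM251 passed in 650 genes (3.39%), 379 higher (1.98%) and 271 lower (1.42%), and 252 without chow knockout array 20. The 308 genes called in both diets made up 10.6% of the high-fat calls and 47.4% of the chow calls, 307 of them in the same direction, with r = 0.45 across genes and no shared array. Lipid synthesis genes rose in both: 13 of 24 fatty acid and triglyceride genes and 15 of 19 cholesterol genes rose on chow, with medians of 0.84 and 0.91. Fasn differed by 2.56 ± 0.54 and Acss2 by 2.7 ± 0.43 on chow, and Cyp2f2 by 4.21 ± 0.7. Lipid-associated macrophage genes passed in 1 gene up (Hvcn1) and 1 gene down (Emp1) of 21 on chow (median -0.29), with 5 lower (23.8%) and 1 higher (4.76%) at an unadjusted p under 0.05, against 9.62% and 8.72% of all genes. Of these genes, Atp6v0d2 was low in both chow groups, with a mean of 4.08 in chow knockouts and 5.39 in chow wild types, against 8.84 in the high-fat wild types.

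The difference between the diets passed in 45 genes (0.235%), 33 more positive on the high-fat diet (0.172%) and 12 more negative (0.0627%). The count was 4 without chow knockout array 23 and 150 without high-fat wild-type array 37. In the limma test 0 of the 21 lipid-associated macrophage genes passed, with 14 at an unadjusted p under 0.05 (66.7%, against 12.8% of all genes), 13 of them more negative on the high-fat diet. Dusp9 differed by -2.47 ± 0.27 on the high-fat diet and -0.64 ± 0.31 on chow, a difference of -1.83 ± 0.41 (adjusted p = 0.0457). Pdk1, a pyruvate dehydrogenase kinase, was 1.41 ± 0.16 on chow and -0.17 ± 0.14 on the high-fat diet, a difference of -1.59 ± 0.22 (adjusted p = 0.000384). Chchd10, a mitochondrial protein, differed by -1.8 ± 0.35, the helicase Recql4 by -1.81 ± 0.38 and Rassf6 by -1.64 ± 0.27. More positive on the high-fat diet were the small heat shock protein gene Hspb7 at 2.22 ± 0.46, Disp2 at 2.19 ± 0.49, D430019H16Rik at 2.04 ± 0.32, Ankrd29 at 2.0 ± 0.42 and Gm6936 at 1.55 ± 0.33, followed by Prodh, which the rule names by its rise, at 1.52 ± 0.32. D430019H16Rik and Pdk1 passed in each of 24 alternatives, and the others lost the call in 1 or more. On the high-fat diet by itself, the genotype difference did not pass in Hspb7 (0.61), Ankrd29 (0.41), Recql4 (0.32), Chchd10 (-0.62), Rassf6 (-0.1) or Pdk1. Rassf6 was dim there, with means of 3.37 in knockouts and 3.48 in wild types.

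**Figure D5:**
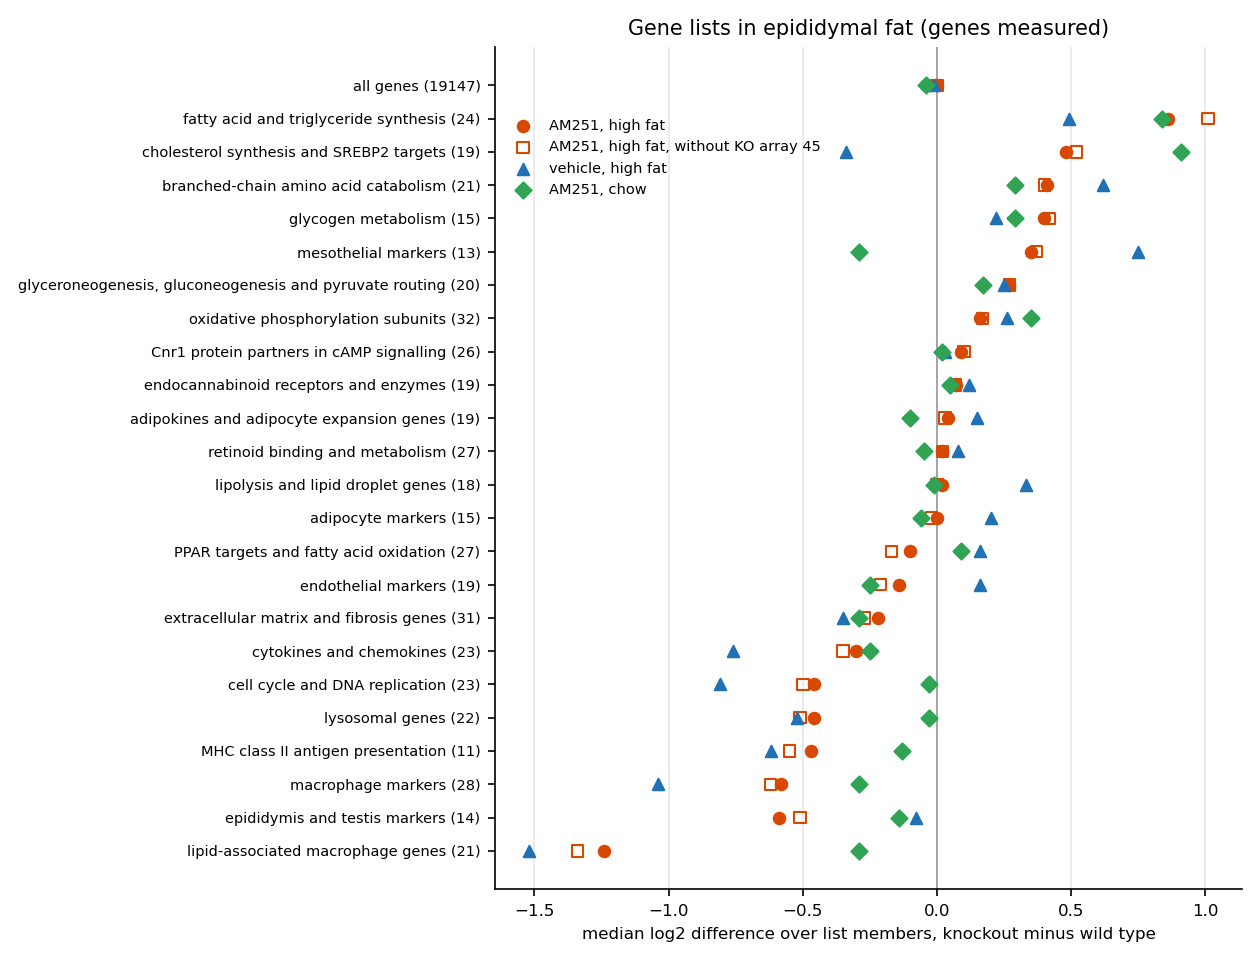
Median log2 difference, knockout minus wild type, over the measured members of 23 gene lists and over all genes; filled circles are AM251 on the high-fat diet, open squares the same without knockout array 45, triangles vehicle on the high-fat diet and diamonds AM251 on chow. The lipid-associated macrophage list lies lowest on the high-fat diet under both treatments. Next under AM251 are the epididymis and testis list (-0.59) and the macrophage markers (-0.58), and under vehicle the macrophage markers (-1.04). The cholesterol list lies at 0.48 under AM251, -0.34 under vehicle and 0.91 on chow under AM251.

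Liver of AM251-dosed high-fat mice (5 knockout and 5 wild-type arrays) came in part from the same animals by their numbers, 4 knockouts and 3 wild types. There 440 genes passed (2.3%). Fasn was higher by 2.85 ± 0.34 in liver, Acss2 by 2.07 ± 0.31, Lss by 1.64 ± 0.21 and Mvk by 1.23 ± 0.16. Vnn1 was lower in both tissues (-2.67 ± 0.32 in liver), as was Cd36 (-2.14 ± 0.32 in liver). Cyp2f2 (-0.15 ± 0.097, adjusted p = 0.624), Dusp9 (-0.01 ± 0.11, adjusted p = 0.987) and Trem2 (-0.28 ± 0.16, adjusted p = 0.55) did not pass in liver.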

How the data were processed

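RNA of epididymal fat was hybridised to 1-colour expression arrays with biotin-labelled cRNA, 36 fat and 39 liver arrays in all. The deposited intensity values are linear and were summarised with RMA per the submitters' processing notes, with no version given in the sources used here. Of 38385 probe sets, 24478 had 1 gene symbol, 65 had several and the rest had none. Log2 intensities were taken from the probe set with the highest mean per symbol, which left 19147 genes. limma 3.58.1 in R 4.3.3 fitted 1 mean for each of the 8 fat groups, with Benjamini-Hochberg adjustment over all genes, after it was tested on simulated data. The number of arrays limits the precision.

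Members and the 41 gene lists were chosen with earlier results of these data known. Named were Cnr1, the 12 largest rises and the 12 largest falls that passed with no overlap of groups, up to 4 members of smallest p in each described list, 5 genes in each direction for each difference, and neighbours of Cnr1 that passed. Vsig8, Rgs1, Ubd, Tph2 and Slc5a7 were chosen after their values were seen. Promoters were matched by Entrez ID, using the first start site listed. Alternatives covered the arrays fitted, array weights, quantile normalization, the mean of probe sets, an offset of 16, a filter on dim genes (mean log2 intensity under 5), a trended prior variance and leaving out each array.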

Additional observations from a re-analysis of the deposited data

Results flagged for a closer look

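Over 135 named genes and both groups compared (270 sets of 5 arrays), 38 times a single array lay far outside the other 4 of its group, and knockout array 45 accounted for 32 of these. Chance gives about 1 in 20, but the tally cannot be read against that. Many of the genes are macrophage genes, for which array 45 had been set apart, and Vsig8, Rgs1, Ubd, Tph2 and Slc5a7 were picked after their values were seen, because array 45 overlapped the wild types. Above the other knockouts it measured 4.94 for Itgad, 6.95 for Cd84, 8.48 for Ccn5, 4.96 for Sptlc3, 7.97 for Pik3r5, 9.66 for Slc11a1, 10.5 for Mpeg1, 11.45 for Tyrobp, 7.37 for Atp6v0d2, 10.36 for Mmp12, 9.0 for Trem2, 9.08 for Itgax, 11.28 for Ctsz, 12.8 for Npc2, 6.01 for Fgf21, 9.55 for Hilpda, 10.14 for Rbp7, 8.19 for Fabp5, 6.73 for Rgs1, 7.21 for Vsig8, 9.04 for Ubd, 9.12 for Slc5a7 and 6.34 for Tph2. Below the other knockouts it measured 4.78 for Cyp2f2, 7.73 for H2-Q10, 4.95 for Cnr1, 9.6 for Mogat1, 11.96 for Mdh2, 10.3 for Bcat2, 10.77 for Ivd, 11.78 for Cyc1 and 12.28 for Plin1. In all of these genes it lay on the wild-type side of the other knockouts, and in Cnr1 below every wild type. Knockout array 49 was high for the epididymis gene Lcn5 (8.29) and knockout array 46 for Recql4 (5.56). Wild-type array 37 was low for H2-Q10 (6.37), Fabp5 (7.83) and H3c15 (6.81), and wild-type array 36 was high for the epididymis gene Crisp4 (7.14).

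The knockout difference itself differed between AM251 and vehicle, by limma's test of that difference, in 13 named genes: it was more positive under AM251 by 2.58 in Angptl8, 2.34 in Mogat2, 2.22 in H3c15, 1.77 in Rhbdl3, 1.55 in Trabd2b, 0.98 in Sc5d and 0.8 in Dgat2, and more negative at -2.54 in Rbp7, -2.44 in Vnn1, -2.32 in Pck1, -1.94 in Hcar1, -1.76 in Vwa3a and -1.47 in Cldn5. It differed between the diets in 11 named genes, at 2.22 in Hspb7, 2.19 in Disp2, 2.04 in D430019H16Rik, 2.0 in Ankrd29, 1.55 in Gm6936, 1.52 in Prodh, -1.83 in Dusp9, -1.81 in Recql4, -1.8 in Chchd10, -1.64 in Rassf6 and -1.59 in Pdk1. Outside the named genes, 1123 of the 13907 probe sets without a single gene symbol passed the AM251 comparison (8.08%), 612 higher and 511 lower.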

How the results depend on the processing

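Leaving out 1 array at a time moved the AM251 count between 2058 and 3384, its higher calls between 1131 and 1734 and its lower calls between 912 and 1650. The vehicle count moved between 1895 and 3270, the chow count between 252 and 752, the AM251 against vehicle difference between 1 and 279, and the high-fat against chow difference between 4 and 150. Array weights gave 294 genes for the difference from vehicle and 194 for that from chow, and leaving out dim genes gave 120 for the former. With unnamed probe sets included, 4490 of 38385 passed. That is a larger count over more features and a smaller share, 11.7% against 15.2% of genes. Why the counts for both differences moved was not tested. Other settings kept these counts within 1.5 times, and the median of all genes stayed between -0.01 and 0.01. Among these settings was a fit of only the 10 arrays compared, with 2261 AM251 calls. Of the named genes, Hcar1, not called under AM251, lay between -0.31 and 0.09 with 1 array left out, above 0 without wild-type array 37, and changed sign without arrays 45 and 37 (0.03) and without arrays 36 and 37 (0.06), and Lcn5 changed sign without arrays 36 and 37 (0.35). Cnr1 lost its call in 14 of 19 alternatives, Spint4 in 11 of 18, Gpihbp1 and Spaca1 in 10, Casp8ap2 and H3c15 in 9, Lss in 8, and Plin1 and Cdh5 in 7. No paired analysis was possible because the knockout and wild-type groups compared share no replicate numbers. Intensity near background limits dim genes, and groups of 3 arrays limit both tests of a difference.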

Other observations

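Other gene lists were counted in the same way under AM251, where 8.19% of all genes were higher in the knockout and 6.99% lower. Of 18 circadian clock genes 5 were higher (27.8%) and 13 did not pass, with a median of 0.32, and of 20 genes of insulin signalling and glucose uptake 4 were higher (20%), with a median of 0.05. Of 21 targets of the antioxidant factor NRF2 6 were higher (28.6%) and 3 lower (14.3%). Of 20 chaperones and stress genes of the endoplasmic reticulum 2 were higher (10%) and 5 lower (25%). Lymphocyte genes gave few calls. Lower were 1 of 15 T and NK cell markers (6.67%) and 1 of 12 B cell markers (8.33%), near the share of all genes. Of 20 interferon-stimulated genes 2 were lower (10%), a count that moved between 1 and 5 over the alternatives. By limma 0 of 12 mast cell and eosinophil markers passed, with 0 at an unadjusted p under 0.05. Of 9 genes known to differ between C57BL/6J and C57BL/6N, 0 passed by limma, with 2 lower at an unadjusted p under 0.05 (22.2%, against 27% of all genes in either direction), and 1 passed with knockout array 45 left out.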
